A study of Mus musculus with 4 samples.

Results

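CTCF summits at the starts of protein-coding genes were examined in CUT&RUN peak lists from 4 lines of mouse embryonic stem cells (mESC). In CUT&RUN an antibody brings a nuclease to the protein of interest, the freed DNA is sequenced, and a summit is the base of highest signal within a peak. A summit belonged to the set when it lay on an autosome other than chromosome 11 and within 1 kb of the start of a RefSeq protein-coding gene, read on the strand of that gene. The set held 6330 of 81054 summits in the Ins library, 3983 of 64499 in Del(CBS8-10), 4432 of 56237 in Inv and 5818 of 85864 in Inv:Del(CBS7-10). Where 4 values stand together below without names, they follow this order of libraries. Chromosome 11 carries the edited HoxB locus and is given by the authors as 2 modified copies, so it was left out.

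All 4 lines carry HoxB Del on one chromosome 11 and, on the other, Del(i9-13) with an inserted array of CTCF sites, Ins(CBS5-10). The Ins line has the complete array, the Del(CBS8-10) line lacks CBS8-10, the Inv line has the array inverted as Inv(CBS5-10), and the Inv:Del(CBS7-10) line has it inverted and lacks CBS7-10. The genes described here lie on other chromosomes. There is 1 library per genotype and the labels do not say how many clones were used, so a difference between libraries cannot be told apart from a difference between genotypes and no test between them was made. The lists hold no expression values, so the cell type was not checked against marker genes.

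CTCF is a zinc-finger protein that binds a long asymmetric DNA motif, blocks cohesin on one side of that motif and so marks the ends of chromatin loops and insulated domains. Most of its sites lie between and within genes, but a part of them lies next to gene starts, where the protein can bring distant enhancers to a promoter or keep them from it. A promoter is the stretch before and around the base at which transcription begins. Many mouse promoters are rich in CpG, and neighbouring genes that point away from each other often share a single promoter region.

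A tabled promoter sequence covered the summit of 18 of the sites named below, and 7 of these stretches held a core word of the CTCF motif while 11 did not. Among the 6 of them that belong to the 10 highest-ranked sites, 2 held it. All 7 with the word are printed, to show where it lies, and Hif1an and Rpl11 stand for those without it. The others without it, not printed, were Gm7932, Tent5b, Yif1a, Ccdc126, Mrps33, Psmc6, Zfp868, Vmn2r29 and Utf1. Each line below gives up to 60 bases on either side of the summit, 5′ to 3′ on the strand of the named gene, cut where a protein-coding gene begins. Capitals mark the core word found on either strand, 12 letters long, of which 7 were fixed and 5 could be any base. Sequences are from RefSeq, build GRCm38.p6.
Hsd3b7, chr7:127800478-127800598, plus strand: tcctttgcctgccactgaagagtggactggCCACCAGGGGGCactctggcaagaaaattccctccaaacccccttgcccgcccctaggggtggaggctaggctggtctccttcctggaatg
Uqcrc1, chr9:108936524-108936644, plus strand: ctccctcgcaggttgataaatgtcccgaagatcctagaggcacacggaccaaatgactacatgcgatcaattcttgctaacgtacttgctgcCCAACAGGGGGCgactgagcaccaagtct
Ndufv1, chr19:4012831-4012951, minus strand: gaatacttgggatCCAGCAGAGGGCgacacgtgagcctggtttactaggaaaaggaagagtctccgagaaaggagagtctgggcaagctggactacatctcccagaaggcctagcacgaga
Sf3b2, chr19:5295496-5295616, minus strand: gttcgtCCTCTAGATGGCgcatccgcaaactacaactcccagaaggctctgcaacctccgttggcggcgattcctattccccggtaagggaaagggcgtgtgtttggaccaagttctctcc
Mrpl17, chr7:105811163-105811283, minus strand: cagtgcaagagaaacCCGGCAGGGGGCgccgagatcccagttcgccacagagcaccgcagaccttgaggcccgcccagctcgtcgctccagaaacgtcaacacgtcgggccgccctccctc
1700013F07Rik, chr3:108537406-108537526, plus strand: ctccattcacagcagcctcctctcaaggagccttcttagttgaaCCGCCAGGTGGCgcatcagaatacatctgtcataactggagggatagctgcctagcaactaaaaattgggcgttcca
Mrpl34, chr8:71464708-71464821, plus strand: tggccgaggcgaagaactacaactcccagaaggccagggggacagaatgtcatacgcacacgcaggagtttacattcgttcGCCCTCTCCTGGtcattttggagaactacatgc
Hif1an, chr19:44562702-44562822, plus strand: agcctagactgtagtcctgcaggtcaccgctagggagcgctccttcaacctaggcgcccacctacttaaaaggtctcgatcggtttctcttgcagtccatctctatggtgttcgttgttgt
Rpl11, chr4:136053408-136053528, minus strand: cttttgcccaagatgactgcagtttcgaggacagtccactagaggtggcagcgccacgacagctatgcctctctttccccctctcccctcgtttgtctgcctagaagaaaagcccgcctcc

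The core word reads along the gene in Hsd3b7, Uqcrc1, Ndufv1, Sf3b2, Mrpl17 and 1700013F07Rik, and against Mrpl34, which shares its promoter with Abhd8. Its centre lay 10.5 bp from the summit at 1700013F07Rik, 24.5 bp at Hsd3b7, 33.5 bp at Mrpl34, 37.5 bp at Uqcrc1, 39.5 bp at Mrpl17, 41.5 bp at Ndufv1 and 48.5 bp at Sf3b2. The stretches at Hif1an and Rpl11 hold no match to these letters, which says nothing about weaker forms of the motif. The stretches at Sf3b2 and Mrpl34 also hold a word of the ZNF143 motif.

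Summits at promoters made up between 6.18% and 7.88% of each list. The share was 7.81% for Ins (95% Wilson interval 7.63 to 8.0), 6.18% for Del(CBS8-10) (5.99 to 6.36), 7.88% for Inv (7.66 to 8.11) and 6.78% for Inv:Del(CBS7-10) (6.61 to 6.95). The Ins and Inv intervals overlapped, and those of Del(CBS8-10) and Inv:Del(CBS7-10) lay below them and apart from each other. Such intervals cover counting error of 1 library and no spread between cultures. The strand of 3867 of 19052 protein-coding genes is not given in the tables used here, among them all genes of chromosome 18, and these genes were not analysed here. A further 2.34%, 1.93%, 2.31% and 2.04% of summits, in the same order of libraries, lay within 1 kb of either end of such a gene and were placed in neither class.

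Promoter summits were weaker than the others. The −log10 q of a peak is the authors' measure of its strength within its own list. Its median at promoters was 12.5, 8.90, 9.37 and 16.6, against 19.0, 12.8, 13.0 and 25.1 for summits away from promoters. In percentiles of the whole list the promoter medians were 41.7, 40.9, 39.6 and 41.8. The authors' fold over local background had a promoter median of 6.99, 6.58, 7.26 and 7.52, against 8.93, 8.0, 8.82 and 9.45 elsewhere.

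The promoter share differed with strength. In the Ins list it stood at 9.20% where the −log10 q was under 5, 10.5% between 10 and 20, and 4.44% between 50 and 100. In the Del(CBS8-10) list it was 8.36% between 5 and 10 and 4.18% between 20 and 50. The Inv list had 10.5% under 5 and 5.25% between 20 and 50, and the Inv:Del(CBS7-10) list 8.52% between 10 and 20 and 3.68% at 100 or more. In the Del(CBS8-10) and Inv lists the strongest class, with a −log10 q of at least 100, held 28 and 34 promoter summits, and their shares of 6.25% (4.36 to 8.88) and 8.17% (5.91 to 11.2) have wide intervals. Bounds of these classes are not the same depth of signal in every list, because the lists differ in length, and the sources used here give no read depth.

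**Figure D1:**
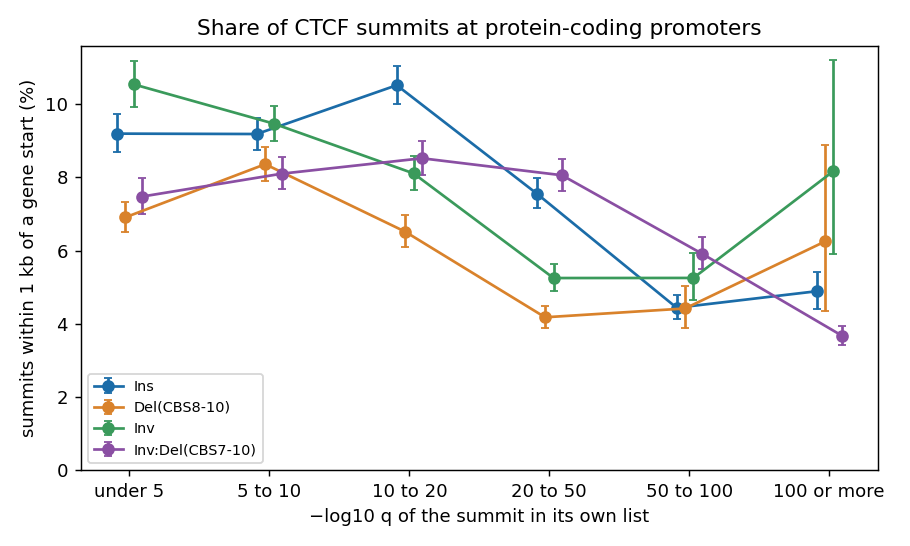
Share of summits (%) within 1 kb of a protein-coding gene start, by −log10 q of the summit in its own list, with points for each of the 4 libraries and bars for 95% Wilson intervals. In the Ins list the share is 10.5% at a −log10 q of 10 to 20 and 4.44% at 50 to 100, and the other lists are also lower at 20 to 50 and beyond than at their highest.

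Counted by gene, a summit within 1 kb of the start was found at 5529 of the 15185 placed genes in the Ins library (36.4%, interval 35.6 to 37.2). The Del(CBS8-10) list had one at 3736 genes (24.6%, 23.9 to 25.3), the Inv list at 4298 (28.3%, 27.6 to 29.0) and the Inv:Del(CBS7-10) list at 5173 (34.1%, 33.3 to 34.8). The Del(CBS8-10) list had the lowest share although it is longer than the Inv list. In all, 2878 genes (19.0%) had a promoter summit in every library, 1446, 1044 and 1230 had one in 1, 2 and 3 libraries, and 8587 (56.5%) had none. Between chromosomes the share ran from 30.1% on chromosome 14 to 43.4% on chromosome 8 in the Ins library.

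Promoter summits gathered just before the start. In the Ins library 1789 of the 6330 (28.3%) lay in the 100 bp upstream of the start, 841 in the next 100 bp upstream, and 684 in the 100 bp downstream of it. Beyond 500 bp on either side there were on average 134.5 summits per 100 bp, so the stretch just upstream held 13.3 times as many. The same ratio was 11.6 for Del(CBS8-10), 15.5 for Inv and 12.4 for Inv:Del(CBS7-10). The median summit lay 51, 60, 47 and 56 bp upstream of the start in the 4 libraries.

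**Figure D2:**
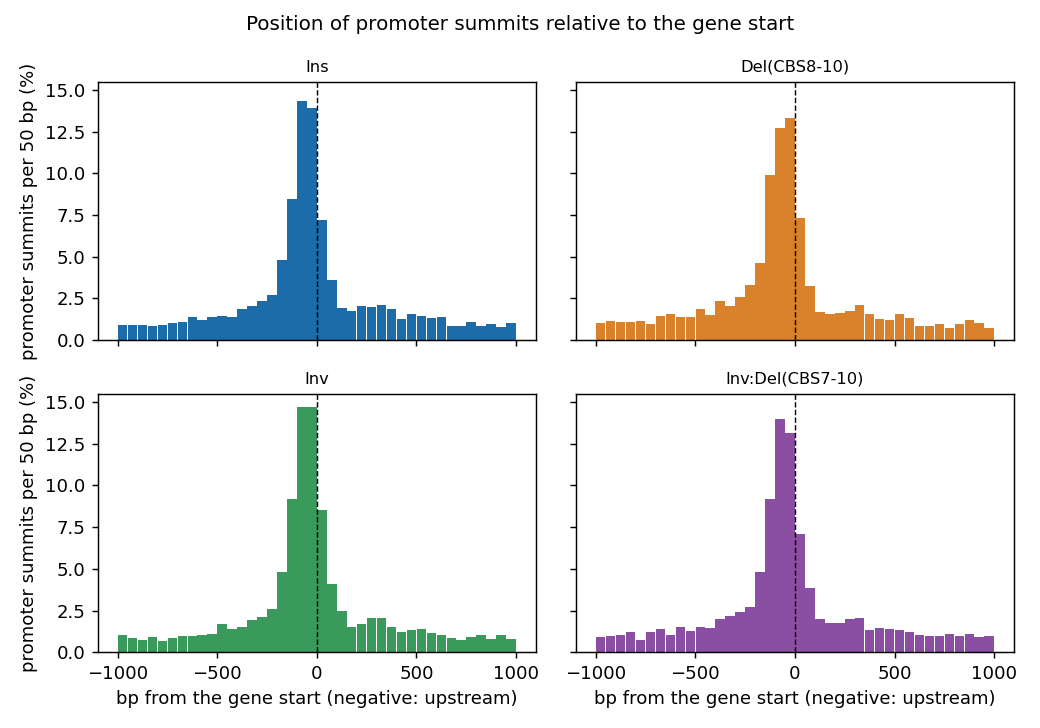
Position of promoter summits relative to the gene start in bp (x axis, negative upstream), as % of the promoter summits of the library per 50 bp (y axis), with 1 panel per library and the start as a dashed line. All 4 profiles peak within 100 bp upstream of the start, a stretch that holds 28.3%, 26.0%, 29.4% and 27.1% of the promoter summits.

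Of all promoter summits, 64.0% (interval 62.9 to 65.2), 66.5% (65.0 to 68.0), 63.8% (62.3 to 65.2) and 64.7% (63.5 to 65.9) were upstream of the start. Strong summits lay upstream in a larger share. Among those with a −log10 q of at least 100 the upstream share was 76.8% in the Ins library (72.1 to 80.8, of 357 summits) and 73.2% in the Inv:Del(CBS7-10) library (69.9 to 76.3, of 735). Among those under 20 it was 61.9% (60.4 to 63.4) and 62.1% (60.4 to 63.7). The Inv library had 71.1% (68.2 to 73.8) between 20 and 100 and 61.4% (59.8 to 63.0) under 20, and the Del(CBS8-10) library 71.7% (68.8 to 74.5) and 64.6% (62.9 to 66.3). The share within 200 bp upstream did not follow this order in every library. At 100 or more and under 20 it was 40.6% and 41.5% for Ins, and 39.9% and 40.1% for Inv:Del(CBS7-10). Between 20 and 100 and under 20 it was 44.8% and 42.9% for Inv, and 37.8% and 41.3% for Del(CBS8-10). A gene start here is the outermost base of the RefSeq gene, predicted transcripts included. With every transcript start of the RefSeq promoter table in its place, the upstream shares were 72.9%, 74.8%, 73.5% and 74.0%.

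The last 100 bp inside the window held 233 Ins summits, with a median −log10 q of 14.6, and the 100 bp just outside it 192, with a median of 17.8. In the Inv library the counts were 163 and 130, with medians of 12.7 and 10.5.

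Counted by gene, members of divergent pairs had a CTCF summit near the start more often than other genes. A divergent pair was a minus-strand gene followed within 1 kb by the start of a plus-strand gene, and 512 such pairs of 1024 genes were found, with a median distance of 101.5 bp between the starts. In the Ins library 66.0% of these genes (interval 63.1 to 68.9) had a summit within 1 kb of the start, against 34.3% (33.5 to 35.1) of the other 14161 genes. Del(CBS8-10) had 44.3% against 23.2%, Inv 54.9% against 26.4% and Inv:Del(CBS7-10) 61.6% against 32.1%. In no library did the intervals overlap, but those of divergent genes take each gene as independent and are too narrow. The partners of a pair share most of their window, so they are not independent. A summit there mostly counts for both genes, which raises the rate per gene. In the Ins library the 676 such genes with a summit belonged to 341 pairs. Of the 6330 Ins promoter summits, 5880 lay nearest to one of the 14161 other genes, out of 15185 genes placed. A difference per start was not tested.

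**Figure D3:**
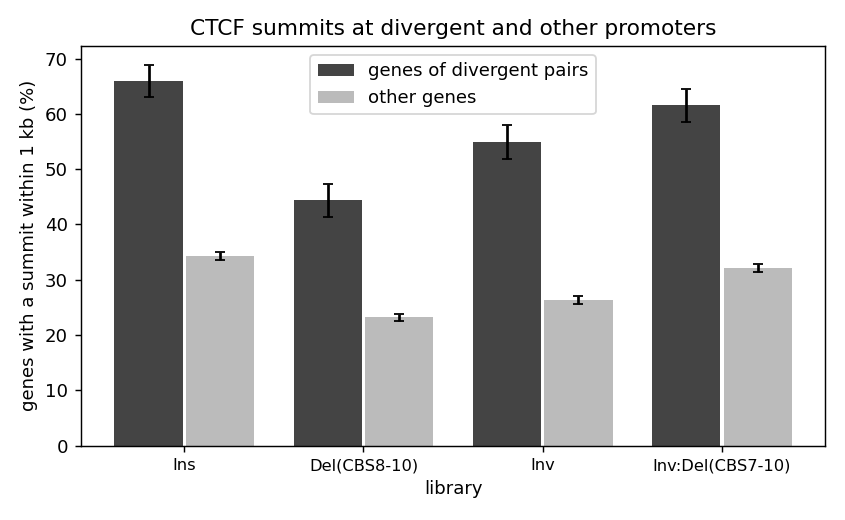
Genes with a CTCF summit within 1 kb of the start (%, y axis from 0) for the 1024 genes of divergent pairs (dark bars) and the 14161 other genes (light bars) in each library, with 95% Wilson intervals. In the Ins library the bars stand at 66.0% and 34.3%, and the dark bar is the higher one in each library. A single summit can count for both genes of a pair.

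The higher rate per gene was also there within quartiles of CpG content. A summit again mostly counts for both genes of a pair, so this split cannot show a difference per start. Promoter windows of 300 bp were split into quartiles by their number of CpG. In the third quartile, with 14 to 25 CpG, 77.6% of 406 divergent genes had a summit in the Ins library, against 55.2% of 3390 others. In the highest quartile, with 25 to 65 CpG, it was 61.0% of 461 against 47.7% of 3335. The quartile with 4 to 14 CpG held 124 divergent genes, of which 53.2% had a summit, against 31.4% of the others. The same order held in each quartile of the other 3 libraries, for example 54.9% against 37.9% in the third quartile of the Del(CBS8-10) library.

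Within pairs, some summits lay in the stretch that separates the genes. For Ins, 341 of 512 pairs had a summit from 1 kb inside one gene to 1 kb inside the other, and in 163 pairs at least 1 summit lay between the starts. In the other libraries 99, 138 and 162 pairs had a summit between the starts. Pairs were ranked by the lowest percentile of −log10 q that the site had in any list. The first by this rank lay between Abhd8, an abhydrolase-family gene, and Mrpl34, which encodes a protein of the mitochondrial ribosome. Its summit, at 71464761 on chromosome 8, was 54 bp from the start of Abhd8 and 165 bp from that of Mrpl34. Its −log10 q was 199.8, 96.4, 94.5 and 360.2. The tabled transcript start of Abhd8 is farther away, 1104 bp from the summit. The printed stretch shows its core word pointing towards Abhd8.

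At Lsr and Fam187b, whose starts are 325 bp apart on chromosome 7, the summit lay 158 bp inside Fam187b, with −log10 q of 205, 101.8, 86.3 and 446, above those of Abhd8 and Mrpl34 in every list but Inv. Slx1b, a subunit gene of a structure-specific nuclease, and Bola2 had the summit 13 bp inside Slx1b, with 129, 65.8, 64.4 and 257. Between Elapor1 and 1700013F07Rik it lay in the stretch that separates them, 118 bp before the latter, with 153, 54.7, 68.2 and 281. The site of Fam227a and Cby1 lay 908 bp inside Fam227a on chromosome 15, with 202, 97.0, 56.3 and 369.

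Over all strengths, median widths of intervals at promoters and elsewhere were within 2 bp of each other except in Inv:Del(CBS7-10). At a −log10 q of 10 to 20 medians over summits were wider at promoters in each list. Medians over summits count an interval once for each of its summits. In that Ins class 19.4% of promoter summits and 11.1% of others lay in intervals of several summits, and the promoter share was the higher one in each list. The median interval at promoters was 324 bp in the Ins library (quartiles 247 and 466), 291 bp in the Del(CBS8-10) library, 283 bp in the Inv library and 346 bp in the Inv:Del(CBS7-10) library. Intervals away from promoters had medians of 324, 289, 282 and 385 bp. At a −log10 q of 10 to 20 the medians over summits were 340.5 bp at promoters and 291 bp elsewhere in the Ins list, 341 and 290 bp in the Del(CBS8-10) list, 315 and 282 bp in the Inv list, and 332 and 312 bp in the Inv:Del(CBS7-10) list. The order was the other way round in the strongest class of 3 lists, where the promoter median was 464 against 508 bp in the Del(CBS8-10) list, 450.5 against 469 bp in the Inv list and 591 against 617 bp in the Inv:Del(CBS7-10) list, and also in the Inv list under 5, where the medians were 200 and 204 bp, and in the Del(CBS8-10) list at 50 to 100, where they were 457 and 461 bp.

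Promoter intervals also held several summits at a higher rate. In the Ins library 610 of 5694 promoter intervals had more than 1 summit (10.7%, interval 9.94 to 11.5), against 6.11% (5.93 to 6.29) of intervals elsewhere. Del(CBS8-10) had 7.28% against 3.99%, Inv 5.09% against 3.02% and Inv:Del(CBS7-10) 11.8% against 6.32%. An interval counted as a promoter one through any of its summits, so those with several had more chances to. Counted over summits by strength, the promoter share was lower under 5 in Del(CBS8-10) (4.50% against 5.06%) and Inv (2.86% against 3.45%). It was also lower at 100 or more in Del(CBS8-10) (14.3% against 23.7%), and higher in all other classes. Promoter intervals were also split by whether their first promoter summit by position recurred in every list. Those where it did were wider, with a median of 427 bp against 275 bp for the rest in the Ins library. That summit was also stronger, with a median −log10 q of 35.5 against 7.56.

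Summits of all libraries at promoters were joined into 8505 sites when neighbours lay within 100 bp. Of these sites 2584 (30.4%) were present in all 4 lists, 1431 in 3, 1425 in 2 and 3065 (36.0%) in a single list. Sites of a single list were mostly weak: 1301 were from the Ins library with a median −log10 q of 5.15, 355 from Del(CBS8-10) with 3.69, 514 from Inv with 4.61 and 895 from Inv:Del(CBS7-10) with 5.68. Seen from each list, 39.6% of the promoter summits of the Ins library (interval 38.4 to 40.8) had a partner in every other list, against 48.6% of its other summits. The values were 62.1% against 59.6% in the Del(CBS8-10) list, 55.8% against 69.9% in the Inv list and 43.0% against 45.4% in the Inv:Del(CBS7-10) list.

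At like strength the picture differed by list. In the Del(CBS8-10) list promoter summits were shared in a larger part than others in the classes below 20, for example 52.6% (49.7 to 55.4) against 35.5% at a −log10 q of 5 to 10. In the Inv:Del(CBS7-10) list it was 58.9% (56.1 to 61.6) against 43.9% at 20 to 50. The Inv list had the opposite order, 39.7% (37.1 to 42.3) against 48.3% at 5 to 10 and 69.6% (66.8 to 72.4) against 80.7% at 10 to 20. The Ins list had promoter summits higher at 10 to 20, with 32.1% (29.7 to 34.5) against 27.1%, level at 20 to 50, with 69.7% against 69.5%, and lower at 50 to 100, with 94.3% (92.3 to 95.8) against 96.6%. At 100 or more, between 98.0% and 100% of promoter summits were found in all lists.

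**Figure D4:**
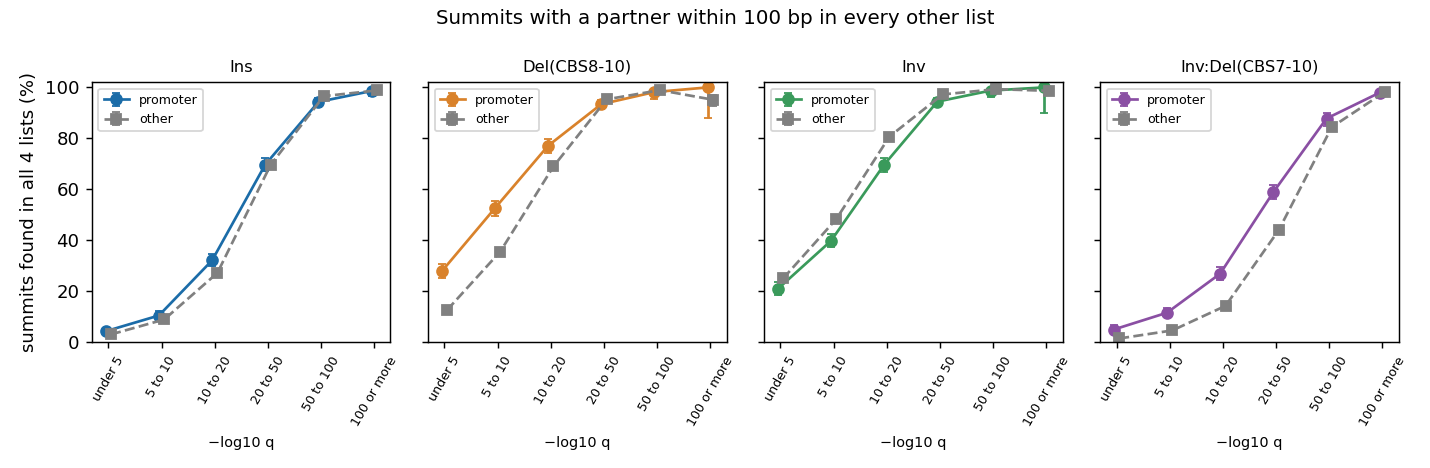
Share of summits (%, y axis) with a partner within 100 bp in every other list, by −log10 q (x axis), for promoter summits (coloured circles) and summits away from promoters (grey squares) in each library, with 95% Wilson intervals. In the Del(CBS8-10) panel the promoter point is at 52.6% and the other at 35.5% for a −log10 q of 5 to 10, whereas in the Inv panel they are at 39.7% and 48.3%.

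Between pairs of lists, the order of promoter summits and summits elsewhere depended on the pair. Of the Ins promoter summits 53.6% (interval 52.4 to 54.9) were found in the Del(CBS8-10) list, against 66.1% of other Ins summits. From the Inv list it was 60.9% (59.4 to 62.3) against 73.1%, and from the Inv:Del(CBS7-10) list 56.1% (54.8 to 57.3) against 60.1%. Towards the Inv:Del(CBS7-10) list the promoter share was also the lower one from Ins, 71.1% against 76.8%, and from Inv, 80.0% against 86.6%, and the higher one from Del(CBS8-10), 81.8% against 79.4%. Towards the Ins list it was 85.0% against 81.3% from Del(CBS8-10), 79.5% against 81.0% from Inv and 77.3% against 71.5% from Inv:Del(CBS7-10). Towards the Inv list the shares were 55.7% against 56.2% from the Ins list, 67.6% against 62.3% from the Del(CBS8-10) list, and 60.9% against 55.9% from the Inv:Del(CBS7-10) list. With 1 library each, genotype and library cannot be told apart here.

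The DNA of promoters with a summit was examined in the RefSeq promoter windows, from 250 bp before to 50 bp after a tabled start, 1 window for each of the 15185 genes. Windows that held an Ins summit had a median of 21 CpG, and those without one a median of 8. The share with a summit did not rise steadily with CpG. In the Ins library 1.71% of windows in the lowest CpG quartile held a summit, 19.8% in the next, 47.3% in the third and 33.8% in the highest. The third quartile was also the highest one elsewhere, for Del(CBS8-10), Inv and Inv:Del(CBS7-10), at 30.4%, 35.8% and 43.3%.

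The CTCF core word occurred, on either strand, in 10.1% of all 15185 windows. It was in 18.3% of windows with an Ins summit (interval 17.1 to 19.6), in 21.4% with a Del(CBS8-10) summit, in 20.4% with an Inv summit and in 19.2% with an Inv:Del(CBS7-10) summit. These shares count the word anywhere in the window. Within 30 bp of the summit it was found in 7.27%, 9.41%, 8.79% and 8.52% of these windows. Windows with no summit in any library had it, anywhere in the window, in 6.95% (6.47 to 7.45). That value compares with the shares anywhere in the window, not with those within 30 bp. The share was higher in strong than in weak classes, though not at every step. For Ins it was 10.8% (8.52 to 13.7) for windows whose strongest summit had a −log10 q under 5, 20.9% (18.3 to 23.9) at 20 to 50, and 45.2% (38.05 to 52.6) at 100 or more. For Inv:Del(CBS7-10) these classes had 11.6%, 18.6% and 44.1%, with a step down from 14.0% at 5 to 10 to 12.9% at 10 to 20. For Inv they had 12.4%, 30.9% and 42.9%, the last on 21 windows and below the 48.4% at 50 to 100. For Del(CBS8-10) they had 12.2%, 36.4% and 63.2%, the last on 19 windows. The same letters read backwards were in 3.49% of all windows, and in 4.88% and 5.65% of the weakest and strongest Ins classes. That word has equal base composition, but it holds a fixed CpG and the core none. With no summit in any library, it was in 0.0811% of windows in the lowest CpG quartile and 8.34% in the highest. Its share is therefore no chance level for the core. The stricter core with 1 more fixed letter, a subset of the core, was in 2.38% of all windows. In the weakest and strongest Ins classes it was in 1.45% and 20.9%.

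**Figure D5:**
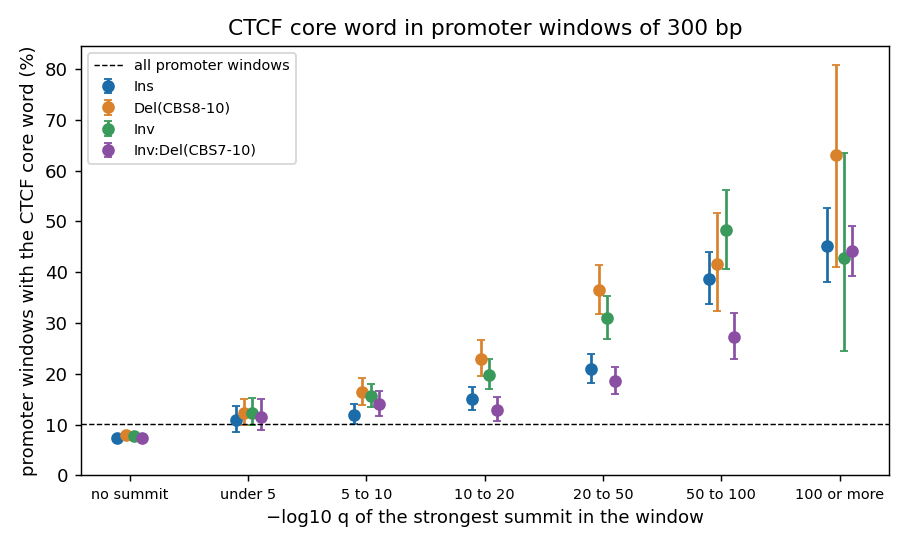
Promoter windows of 300 bp that hold the CTCF core word on either strand (%, y axis), without a summit and by the −log10 q of their strongest summit (x axis), for each library with 95% Wilson intervals. The dashed line is the 10.1% of all windows, and the Ins points run from 10.8% under a −log10 q of 5 to 45.2% at 100 or more.

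The word was also counted within CpG quartiles. In the lowest CpG quartile the core word was in 16.9% of the windows with an Ins summit and in 2.51% of those with no summit in any library. In the third quartile it was 16.5% against 9.47%, and in the highest 21.4% against 14.1%. Where the word was present, its centre lay at a median of 40.5, 34.5, 35.5 and 34.5 bp from the summit. In the strongest class, at 100 or more in −log10 q, the medians were 29 bp for Ins (80 windows) and 21.5 bp for Inv:Del(CBS7-10) (169), but 41.5 bp for Del(CBS8-10) (12) and 42.5 bp for Inv (9). Of 468 core words in windows with a summit in every library, 62.6% pointed along the gene (58.1 to 66.9). In windows with no summit in any library 53.5% of 759 such words did (49.9 to 57.0).

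Words of other promoter-binding factors were counted in the same windows. The word of ZNF143, a zinc-finger activator of promoters, was in 1.63% of all windows, in 0.533% of those with no summit in any library and in 5.35% of those with a summit in every library. By strength, it was in 5.22% of Ins windows at a −log10 q of 10 to 20 and in 4.52% at 100 or more. Within the third CpG quartile it was in 5.18% of windows with an Ins summit and 0.923% without a summit in any library. The word of NRF1, an activator of nuclear genes for mitochondria, was in 6.80% of all windows and in 10.6% against 8.12% in that quartile. The word of YY1, a zinc-finger factor of many promoters, was in 1.94% of all windows and in 3.62% against 2.21% in the third quartile. In the highest CpG quartile it was in 3.43%, 2.96%, 3.46% and 3.16% of windows with a summit of each library, against 3.22% with none in any. A word is a description of the letters and does not show that the factor was bound.

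Among single sites, the 10 with the highest rank over the 4 lists were at Gm7932, Hif1an, Tmem270, 4930467E23Rik, Tent5b, Mlf2, Cep164, Hsd3b7, Yif1a and Sf3b2, each within the top 1% of every list. Hif1an encodes the asparaginyl hydroxylase that restrains hypoxia-inducible factor. Its summit was at 44562762 on chromosome 19, 92 bp upstream of the start, with −log10 q of 236, 124, 161 and 482. The folds were 31.1, 28.4, 31.2 and 33.5.

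Hsd3b7 encodes an enzyme of bile acid synthesis. Its summit at 127800538 on chromosome 7 lay 71 bp upstream, with −log10 q of 290, 133, 105 and 422. Sf3b2, a subunit of the splicing factor SF3B, had its summit at 5295556 on chromosome 19, 99 bp upstream, with 252, 100.3, 131 and 459. Yif1a, a membrane protein of transport between endoplasmic reticulum and Golgi, lies on the same chromosome, and its summit at 5088391 was 147 bp upstream, with 200, 107, 132 and 510. In each of these the −log10 q was highest in the Inv:Del(CBS7-10) list, which is also the longest list.

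Farther from the start were the sites of Tmem270, Mlf2 and Cep164, a gene of the centriole appendages needed for cilia. The Tmem270 summit at 134907365 on chromosome 5 lay 632 bp upstream, with −log10 q of 339, 133, 117 and 624. At Mlf2 the distance was 504 bp and the values 246, 134, 137 and 396, and at Cep164 they were 657 bp and 229, 142, 105 and 389. Tent5b, of a family of RNA nucleotidyltransferases, had its site 245 bp upstream, with 248, 146, 120 and 405.

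Some sites of high −log10 q had lower folds. At 4930467E23Rik, 801 bp inside the gene, the −log10 q of 294, 120, 169 and 548 went with folds of 8.05, 6.76, 11.4 and 8.70, well below the 25.4 to 31.0 at Tmem270. Its start is also uncertain, since the nearest tabled transcript start is 24464 bp away. Gm36079, with the highest promoter value of the Ins and Del(CBS8-10) lists, reached 409, 172, 101 and 376 in −log10 q, beside folds of 13.0, 10.8, 14.6 and 15.6. Its summit lay 826 bp inside this predicted gene, nearer its far end than its start, as the gene spans 120026284 to 120027379 on chromosome 13. Gm7932 had 286, 133, 181 and 514 with folds of 18.3, 16.9, 23.6 and 19.4. The lists were used without a filter for regions of unspecific high signal, and the part of such regions in these 3 sites was not tested.

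Among the 3 strongest of single lists were also Uqcrc1, Ccdc126 and Cstdc2. Uqcrc1 encodes a core protein of respiratory complex III, and its summit at 108936584 on chromosome 9, 64 bp upstream, had −log10 q of 355, 135, 122 and 308. At Ccdc126 the summit was 188 bp upstream, with 336, 148, 84.0 and 371. The Cstdc2 summit lay 355 bp upstream, with 261, 97.4, 74.5 and 518.

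Genes were next grouped by family and read against the background of 36.4%, 24.6%, 28.3% and 34.1% of all placed genes with a promoter summit, and 19.0% with one in every library. This background is not matched for CpG content, and no family was compared at like CpG. Outside divergent pairs 6.32%, 31.4%, 55.2% and 47.7% of genes had an Ins summit, from the lowest to the highest CpG quartile. Genes within a family are ranked, as the pairs were, by their lowest percentile over the lists. Of 61 placed genes of the respiratory chain and ATP synthase 39, 27, 35 and 40 had a summit in the 4 libraries (63.9%, 44.3%, 57.4% and 65.6%), and 25 had one in every library. Uqcrc1 and Ndufv1, a flavoprotein of complex I, led them. The Ndufv1 summit lay 136 bp upstream, with −log10 q of 299, 131, 65.8 and 323.

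Of 32 proteasome genes 20, 13, 18 and 18 had a summit, and 13 had one in every library. Psmc6, an ATPase of the regulatory particle, had its site 167 bp upstream with −log10 q of 105, 30.5, 46.9 and 121. The site of Psma3, a subunit of the core particle, was 695 bp inside the gene but far from its tabled transcript start, with 123, 47.0, 36.7 and 214.

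Of 57 genes taken in by the cytoplasmic ribosomal protein pattern 30, 22, 24 and 33 had a summit, and 16 had one in every library. Rpl11 led them, with a summit 75 bp upstream and −log10 q of 181, 88.3, 75.4 and 198, followed by Rpl7l1, a relative of Rpl7, with 141, 44.3, 27.0 and 172. Of 56 mitochondrial ribosomal protein genes 37, 22, 24 and 30 had one, and 19 had one in every library. Mrps33 had 108, 52.2, 70.1 and 156 at 40 bp upstream, and Mrpl17 had 82.2, 41.3, 33.8 and 121 at 136 bp upstream.

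Zinc finger genes of the Zfp series, many of which encode repressors, had a summit in 176, 118, 136 and 175 of 308 cases, and in every library in 86. Zfp868 ranked first, with −log10 q of 111, 68.0, 44.5 and 194 at 105 bp upstream, and Zfp764, higher in the Ins and Inv lists, had 130, 54.4, 60.2 and 145 at 12 bp inside the gene. Histone genes had one in 27, 20, 32 and 45 of 70 cases, or 38.6%, 28.6%, 45.7% and 64.3%. Their starts lie close together in clusters, so 1 summit can fall near several. The first by rank, at H4c11 and H4c3, lay 757 bp upstream of and 906 bp beyond the start, with −log10 q of 96.3, 48.1, 41.2 and 245 and of 33.9, 14.0, 15.2 and 96.3.

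Receptor and keratin genes, known for their use in specialised tissues, lay below the background. Of 863 odorant receptor genes 16, 15, 6 and 18 had a promoter summit, and 6 had one in every library. Olfr763 and Olfr9, both on chromosome 10, ranked first, with −log10 q of 45.3, 22.3, 17.8 and 34.9 and of 41.9, 14.6, 21.1 and 42.3. Their summits lay 375 and 368 bp inside short genes, which span 129011287 to 129012216 and 128989914 to 128990852. Whether transcription begins at the starts used for such genes was not tested. Of 320 vomeronasal receptor genes 7, 7, 2 and 4 had one, led by Vmn2r29 with 87.1, 45.9, 46.7 and 134, at 23 bp upstream. None of 19 keratin and keratin-associated protein genes had a summit in any library, which allows a share of up to 15.8%. Receptor and histone genes have close copies, and how reads that map to several copies were treated is not stated in the sources.

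Of 19 placed Hox genes 2 had a promoter summit, the same 2 in every library. Hoxa10, a homeobox factor of the posterior body, had it 336 bp inside the gene, with −log10 q of 101.99, 48.8, 69.3 and 119. Hoxa5 had it 34 bp upstream, within the span of Hoxa3, with 33.9, 16.4, 13.6 and 47.1. Of 11 germ layer regulators Mesp1 and Olig2 had one in every list, Neurog2 and Eomes in some, and Twist1, Otx2, T, Pax6, Foxa2, Cdx2 and Sox1 in none. The Mesp1 summit lay 756 bp inside the gene, with 23.3, 6.83, 8.44 and 56.3. Olig2, a factor of the neural lineage, had it 630 bp upstream, with 24.5, 5.997, 4.32 and 26.3.

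Pluripotency genes were near the background, with 3, 2, 4 and 5 of 12. Utf1, a chromatin-bound factor of embryonic stem cells, had a summit in every list at 112 bp upstream, with −log10 q of 25.5, 11.4, 8.59 and 14.4. Trim28, a corepressor of zinc finger proteins, had one at 68 bp upstream, among the weakest peaks of the Ins and Del(CBS8-10) lists and inside the predicted gene Gm31649, with 2.397, 2.31, 4.97 and 11.7. Nanog, Zfp42 and Tdgf1 had one in some lists, and Tfcp2l1, Esrrb, Pou5f1, Sox2, Klf4, Lin28a and Fgf4 in none. A missing promoter summit says nothing about CTCF sites farther from these genes.

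Of 8 placed genes of CTCF and cohesin 5, 4, 4 and 4 had a promoter summit. Ctcf itself, Smc3, a core subunit of the cohesin ring, and Pds5b, which binds the ring and governs its release, had one in every list. The Smc3 summit lay 465 bp upstream, with −log10 q of 163, 66.1, 35.0 and 218. At Pds5b it was 7 bp inside the gene and also inside the predicted gene Gm40353, with 71.9, 33.3, 48.3 and 127. Mau2 and Stag1 had one in some lists, and Wapl, Smc1b and Pds5a in none.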

How the data were processed

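CTCF CUT&RUN peak lists of 4 mESC libraries, 1 per genotype, were used. Peaks are on mm10, and MACS2 2.2.7.1, bedtools 2.30.0, Picard, Bowtie2 2.4.5 and cutadapt 4.1 are listed as tools, per the submitters' processing notes. Settings and depth were not among the sources. The deposited score is the −log10 q times 10 as a whole number. The fold over local background, and the −log10 p and −log10 q of each peak, are values deposited by the authors, as is the summit offset in bp.

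Gene starts are the 5′ ends of RefSeq genes (GRCm38.p6). Strand came from the RefSeq promoter table, which holds 15185 of 19052 genes (79.7%). The start equals a tabled one in 59.9% and lies within 100 bp of it in 77.1%. A summit went to its nearest start within 1000 bp. A summit was shared with a list that had one at most 100 bp away. Motif words were searched on both strands. Shares have 95% Wilson intervals, which hold counting error alone, and a count of 0 was given the limit of 3 counts. Python 3.11.15, pandas 2.3.3, NumPy 2.4.6, SciPy 1.17.1 and Matplotlib 3.10.9 were used, and the scripts were tested on simulated data.

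Sites named are the 10 with the highest lowest percentile of −log10 q over the lists, the 3 strongest of each list, the 5 highest divergent pairs, and the 2 highest genes of each gene list, with the members without a summit for short lists. The clustered protocadherins had 0 of 57 genes placed. Members and lists were chosen with earlier results of these data known. Other windows, strength limits, matching distances and gene starts were tried.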

Additional observations from a re-analysis of the deposited data

How the results depend on the processing

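Each setting was changed alone, and values are for Ins, then Del(CBS8-10), Inv and Inv:Del(CBS7-10). With a window of 500 bp the share of summits at promoters was 6.15%, 4.79%, 6.39% and 5.29%. The share of genes with a summit was 31.2%, 20.0%, 23.9% and 28.5%. The upstream share was 67.7%, 69.9%, 67.3% and 68.3%. With one of 2 kb the share of summits at promoters was 10.2%, 8.47%, 10.2% and 9.10%. The share of genes with a summit was 44.5%, 32.1%, 34.8% and 42.6%. With weaker peaks (−log10 q under 10) left out, the share of summits at promoters was 7.04%, 5.05%, 6.42% and 6.31%. The share of genes with a summit was 22.6%, 11.7%, 13.9% and 23.4%. The upstream share was 67.6%, 69.2%, 69.1% and 67.5%. The share of divergent genes with a summit was 38.9%, 16.2%, 25.8% and 42.7%. The median width was 411 bp, 375 bp, 334 bp and 428 bp, against 436, 357, 314 and 468 bp elsewhere, so that promoter peaks were then narrower in Ins and Inv:Del(CBS7-10) and wider in the other lists. Among the 20000 strongest summits of each list the share of summits at promoters was 4.68%, 4.22%, 5.15% and 3.57%. The share of genes with a summit was 5.604%, 5.02%, 6.01% and 4.31%. The median width was 534 bp, 429 bp, 382 bp and 590 bp. With the strongest summit per interval the share of summits at promoters was 7.49%, 6.01%, 7.75% and 6.46%. Without predicted genes the share of summits at promoters was 7.51%, 5.91%, 7.54% and 6.501%. The share of genes with a summit was 37.5%, 25.3%, 29.1% and 35.1%. With tabled transcript starts, chosen after seeing the data, the share of summits at promoters was 8.69%, 6.86%, 8.64% and 7.53%. The upstream share was 72.9%, 74.8%, 73.5% and 74.0%. Without chromosome 18, also chosen after seeing the data, the share of summits at promoters was 8.06%, 6.38%, 8.13% and 6.99%. Without divergent pairs the upstream share was 66.0%, 68.5%, 65.4% and 66.4%. With pairs within 500 bp the share of divergent genes with a summit was 65.8%, 44.9%, 55.0% and 62.2%. With matching within 50 bp the share found in all lists was 33.0%, 51.1%, 45.9% and 35.9%. With matching within 250 bp the share found in all lists was 44.8%, 70.3%, 62.9% and 48.8%. With any overlap of intervals the share found in all lists was 50.2%, 73.5%, 65.2% and 54.1%. With that limit in every list the share found in all lists was 36.0%, 72.1%, 63.0% and 35.1%. Without the Inv library, for the other 3 lists, the share found in all lists was 48.9%, 77.1% and 53.0%. At a −log10 q of at least 10, summits elsewhere were found in all lists in 52.1%, 72.9%, 82.4% and 45.0%. For Del(CBS8-10) the promoter share was then no longer the higher one, and its interval of 70.0 to 74.1 held the value elsewhere. Non-divergent genes had a summit in 21.4%, 11.4%, 13.0% and 22.0% at that limit, below divergent genes in each list. This is again a count by gene, in which a single summit can count for both genes of a pair. Depth limits what an absent summit shows. No paired analysis was possible because each genotype has 1 library and no comparison was tested.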
